A study of Mus musculus with 16 samples.

Results

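The cornified envelope is the protein shell that replaces the plasma membrane of keratinocytes as they complete terminal differentiation, and the late cornified envelope (Lce) genes encode small cysteine-rich proteins that are added to it last, in the granular layer. They lie side by side in the epidermal differentiation complex of mouse chromosome 3, among the genes of loricrin, involucrin, the small proline-rich proteins and the filaggrin family. Described here are 7 genes of the Lce1 group (Lce1a1, Lce1a2, Lce1b, Lce1c, Lce1d, Lce1h and Lce1i) and Kprp, which encodes the keratinocyte proline-rich protein of the upper epidermis. They were taken by gene symbol, as the probe sets annotated with 1 of these 8 symbols, and were chosen by their measured difference between the cohorts at 6 to 24 h. They are 8 of the 12580 genes tested and had 9 of the 45101 probe sets of the array, with 2 for Lce1a1 and 1 for each other gene, and all 9 were among the 25563 probe sets that passed a filter on low values. No probe set named a member beside another gene.

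Dorsal skin of iK5-TERT mice (K5tTA-tetop-TERT) was profiled on 16 Affymetrix arrays, 1 per biopsy. In these mice the keratin-5 promoter drives the tetracycline transactivator, and with it transgenic Tert, in the basal layer of the epidermis and the outer root sheath, unless doxycycline is present. Every mouse carried both transgenes, had doxycycline in the drinking water during development so that Tert came on after birth, and was at day 60 with its follicles labelled as anagen, the growth phase. The TERT-off cohort (2 mice) was injected with doxycycline at 8 µg/g, which silences the transgene, and the TERT-on cohort (2 mice) with PBS. Biopsies were taken at 0, 6, 12 and 24 h, which gave 8 groups of 2 arrays. Arrays that share a cohort and a replicate number were taken as serial biopsies of 1 mouse. In the labels the 0 h biopsies of this cohort count as injected already, and by the study's design they precede any effect of the injection. The biopsies covered 3 cm² with the subcutaneous fat removed, so that epidermis, follicles and dermis were measured together. In such bulk samples, fewer cells of a type and less RNA per cell cannot be told apart.

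Tert intensity was 8.32 to 16.1 on the TERT-off arrays and 22.6 to 64.6 on the TERT-on arrays of 6 to 24 h, and 185 to 357 on the 4 arrays of 0 h. The 5′ to 3′ ratio of the Gapdh control was 0.0599 on the 0 h array of TERT-on mouse 1 and 0.977 to 1.12 on the 15 others. The 12 listed markers of basal, suprabasal and granular keratinocytes were at 186 or more on every array, beside a table median of 34.4. The summed intensity of 4 granular layer genes (Lor, Flg, Ivl and Casp14) ran from 5925 to 7349 on TERT-off arrays and from 5137 to 7310 on TERT-on arrays of 6 to 24 h.

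The promoters of the 7 Lce1 genes are alike in sequence. RefSeq promoter windows (GRCm38.p6, 250 bases before to 50 after the start) were at hand for all 7, and the 100 bases before each start are printed 5′ to 3′ on the strand of the gene. Capitals mark a run of 13 bases, ACTGTCTCACAGG, and the run ATAAAAG, both picked out after the sequences had been seen.
Lce1a1, chr3:92648308-92648407, minus strand: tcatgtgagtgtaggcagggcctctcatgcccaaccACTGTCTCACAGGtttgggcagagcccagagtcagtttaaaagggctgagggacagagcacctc
Lce1a2, chr3:92670316-92670415, minus strand: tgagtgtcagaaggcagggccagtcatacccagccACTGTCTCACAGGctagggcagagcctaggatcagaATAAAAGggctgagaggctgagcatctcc
Lce1b, chr3:92656927-92657026, minus strand: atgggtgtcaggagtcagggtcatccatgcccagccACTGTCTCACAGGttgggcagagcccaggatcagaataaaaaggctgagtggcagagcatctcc
Lce1c, chr3:92679147-92679246, plus strand: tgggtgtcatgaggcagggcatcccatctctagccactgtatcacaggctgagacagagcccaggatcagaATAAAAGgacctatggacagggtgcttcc
Lce1d, chr3:92687211-92687310, minus strand: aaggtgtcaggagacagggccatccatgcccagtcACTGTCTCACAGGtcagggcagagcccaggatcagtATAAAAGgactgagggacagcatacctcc
Lce1h, chr3:92765066-92765165, minus strand: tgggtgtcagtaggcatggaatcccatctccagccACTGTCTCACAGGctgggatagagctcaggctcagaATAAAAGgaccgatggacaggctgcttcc
Lce1i, chr3:92778900-92778999, minus strand: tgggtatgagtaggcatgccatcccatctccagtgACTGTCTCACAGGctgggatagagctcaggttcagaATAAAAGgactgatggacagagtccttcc

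The 13-base run stood in 6 of the 7 windows, with its first base 64 or 65 bases before the start. Lce1c held it at the same place with 1 substitution, C6A, counted from 1 at the 5′ end of the run. Of all 32851 promoter windows in the table, 7 (0.0213%) held the run on the gene's strand, and these were the 6 members and Lce1e, a neighbour with no probe set of its own. Lce1g and Lce1j, also without a tested probe set, had 1 mismatch (A11T and G12A). The nearest matches in the windows of Lce1k and Lce1m had 3 mismatches, and those of Lce1l, Lce6a and the 6 Lce3 genes had 5 or 6. No window was at hand for Lce1f or Kprp, so the run could not be looked for in either. The run ATAAAAG began 29 bases before the start in 5 of the 7 members and was held by 3.38% of all windows. Near the same place it also stood in Lce1e, Lce1g, Lce1j, Lce1l, Lce1m, Lce3b, Lce3c, Lce3d, Lce3e and Lce3f, which are not members. AGATCTTG, within the first 50 bases after the start, was held by 6 of 7 members and by 0.597% of all windows. The neighbours Lce1e, Lce1g and Lce1j held it too.

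For 5 binding motifs searched on both strands, counts are given beside the share of all windows. As the 7 windows are alike in sequence, neither a shortage nor an excess is read from them. The letters of the AP-1 site, TGANTCA, were in 0 of 7 windows on either strand (7.81% of all windows), and those of the E-box, CACGTG, were in 0 of 7 (7.15%). CACCC, a core bound by KLF factors, was in 3 of 7 (57.52% of all windows), CTTTGA, a core of TCF/LEF sites, was in Lce1h alone (16% of all windows), and TATAAA was in Lce1d alone (13.62%), where it overlaps the ATAAAAG run. These are matches of letters and not measured sites. The promoter sequences do not tell how alike the transcripts are, and no transcript or probe sequence was compared. Probe sets of the Lce1 genes may also take up RNA of a neighbour, which was not tested. The probe sets of Lce1d, Lce1h and Lce1i and the second one of Lce1a1 carry the suffix that Affymetrix gives to sets with probes shared between sequences, so these 8 genes are not 8 independent readings.

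From 6 to 24 h all 8 genes stood higher in the TERT-off cohort than in the TERT-on cohort. The log2 differences, from 1 limma fit across all probe sets, ran from 0.52 for Kprp to 1.08 for Lce1h, which are 1.43-fold and 2.11-fold. Their median was 0.76, beside 0.03 for all tested probe sets and 0.04 for all 12580 tested genes. As the genes were named with this contrast in view, it is given as a description with no test: all 8 lay past the fit's threshold, where 25.9% of all probe sets did, 15.1% on the higher side. Without TERT-off mouse 1 the median of the genes was 0.60, and without TERT-off mouse 2 it was 0.84 over 5 genes. Without TERT-on mouse 1 it was 0.64, and without TERT-on mouse 2 it was 0.81. Leaving out the 12 h array of TERT-off mouse 1 alone gave 0.71. The number of genes past the threshold fell without either TERT-on mouse, and so did the share over all probe sets.

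Lce1h, the gene with the largest difference, had intensities of 1497 and 896 in the TERT-off mice and 541 and 892 in the TERT-on mice at 0 h. At 6 h Lce1h read 1557 and 784 in the TERT-off mice and 418 and 768 in the TERT-on mice. At 12 h Lce1h read 1786 in TERT-off mouse 2, with no value in TERT-off mouse 1, and 577 and 579 in the TERT-on mice. It was thus highest in TERT-off mouse 1 at 0 and 6 h, and TERT-off mouse 2 stood clearly above both TERT-on mice only from 12 h on. At 24 h Lce1h read 1160 and 1277 in the TERT-off mice and 860 and 753 in the TERT-on mice. The TERT-off arrays of 6 to 24 h overlapped the TERT-on arrays only through the 6 h array of TERT-off mouse 2, and the fitted log2 difference was 1.08 (SE 0.25).

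Lce1i, the next member along the cluster, had 3766 and 1873 in the TERT-off mice and 1498 and 2097 in the TERT-on mice at 0 h. Its 6 h values were 2950 and 1711 in the TERT-off mice and 1098 and 2080 in the TERT-on mice. Its 12 h values were 3648 in TERT-off mouse 2, with none in TERT-off mouse 1, and 1198 and 1503 in the TERT-on mice. Its highest array of all was that of TERT-off mouse 1 before any effect of doxycycline. At 24 h Lce1i read 2234 and 2546 in the TERT-off mice and 1794 and 1688 in the TERT-on mice, and the log2 difference over 6 to 24 h was 0.84 (SE 0.24).

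Lce1a1, at the near end of the cluster, had 2841 and 1843 in the TERT-off mice and 2015 and 2077 in the TERT-on mice at 0 h. The TERT-on mice then lay between the TERT-off mice. At 6 h Lce1a1 read 2475 and 1614 in the TERT-off mice and 1252 and 1689 in the TERT-on mice, and at 12 h the values were 3479 and 2741 in the TERT-off mice and 1487 and 1446 in the TERT-on mice. At 24 h Lce1a1 read 1969 and 2142 in the TERT-off mice and 1699 and 1454 in the TERT-on mice. Both TERT-off mice were at their peak at 12 h, while the TERT-on arrays of 6 to 24 h all lay below both TERT-on arrays of 0 h. Over 6 to 24 h the log2 difference was 0.64 (SE 0.14), and its second probe set, measured by partly shared probes, gave 0.66 (SE 0.14).

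The other 4 Lce1 genes also stood higher in TERT-off skin over 6 to 24 h, and intensities of different probe sets are not comparable with each other. Lce1a2 had 1328, 1855 and 2959 as the lowest, median and highest of 6 TERT-off arrays and 874, 1133 and 1493 of 6 TERT-on arrays of 6 to 24 h (log2 difference 0.71, SE 0.17). Lce1c had 1145, 1722 and 2696 in TERT-off and 854, 1128 and 1352 in TERT-on skin (0.66, SE 0.16). In both genes 5 of the 6 TERT-off arrays lay above all 6 TERT-on arrays, and the sixth was TERT-off mouse 2 at 6 h. Lce1d had 493, 684 and 1225 in TERT-off and 262, 424 and 528 in TERT-on skin (0.83, SE 0.21). Lce1b had 1029, 1393 and 1904 over 5 TERT-off arrays and 658, 863 and 1067 over 6 TERT-on arrays (0.82, SE 0.18), with the value of TERT-off mouse 1 at 12 h missing. Again 1 TERT-off array of each, that of mouse 2 at 6 h, lay within the TERT-on range.

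Kprp had the smallest difference. At 0 h Kprp read 1323 and 884 in the TERT-off mice and 1337 and 1293 in the TERT-on mice, and at 6 h 1477 and 846 in the TERT-off mice and 737 and 1009 in the TERT-on mice. At 12 h Kprp read 1877 and 1504 in the TERT-off mice and 706 and 879 in the TERT-on mice. At 24 h Kprp read 967 and 1030 in the TERT-off mice and 950 and 921 in the TERT-on mice. The cohorts were thus far apart at 12 h and close together at 24 h, and the log2 difference over 6 to 24 h was 0.52 (SE 0.16).

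**Figure D1:**
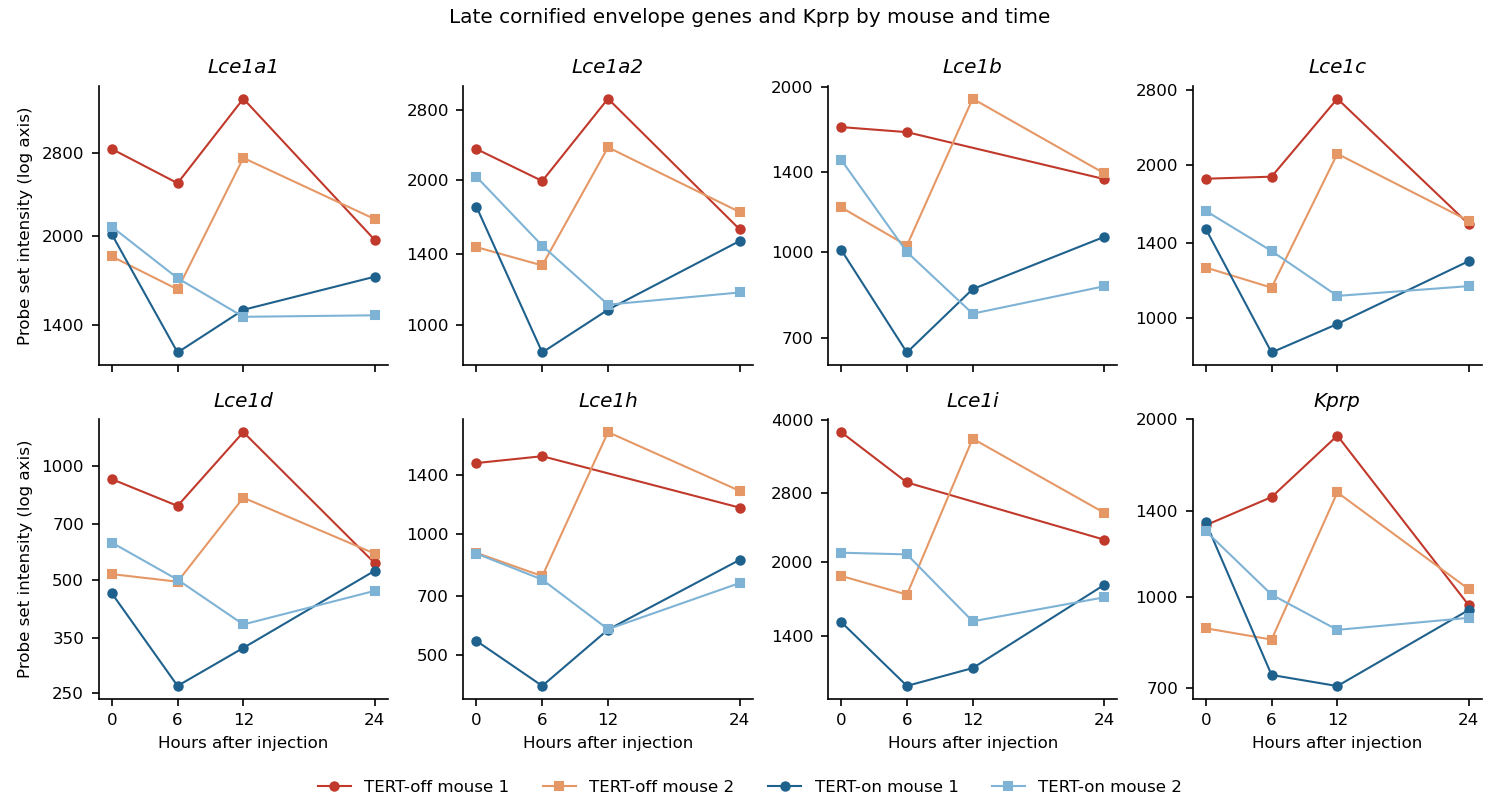
Probe set intensity (log axis) of each of the 8 genes by hours since the injection, with a line for each mouse and a point for each array. A line passes over 12 h where TERT-off mouse 1 has no value (Lce1b, Lce1h and Lce1i). At 12 h the TERT-off points lie above both TERT-on points in all 8 genes, and at 6 h TERT-off mouse 2 lies near TERT-on mouse 2.

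Values were missing on 1 array only. Lce1b, Lce1h and Lce1i had no value in TERT-off mouse 1 at 12 h, the array on which each of the other 5 genes had its highest value over 6 to 24 h. Differences of these 3 genes therefore rest on 5 TERT-off arrays, and their 12 h difference on 1 TERT-off array against 2 TERT-on arrays.

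By time, the difference was largest at 12 h in every gene, as a description on the same arrays. Before injection its median over the 8 genes was 0.19, and it was then 0.55 at 6 h, 1.27 at 12 h and 0.36 at 24 h, against 0.02, 0.05, 0.04 and 0.0039 over all tested probe sets. At 12 h the TERT-off arrays lay above both TERT-on arrays in 8 of 8 genes, where 35.5% of all probe sets did, and at 24 h in 8 of 8, where 27.8% did. At 6 h they did so in 2 of 8 (29.8% of all probe sets), and at 0 h in 1 of 8 (17.2%). Over the 3 later times together 0 of 8 genes had all TERT-off arrays above all TERT-on arrays, where 6.29% of all probe sets did.

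**Figure D2:**
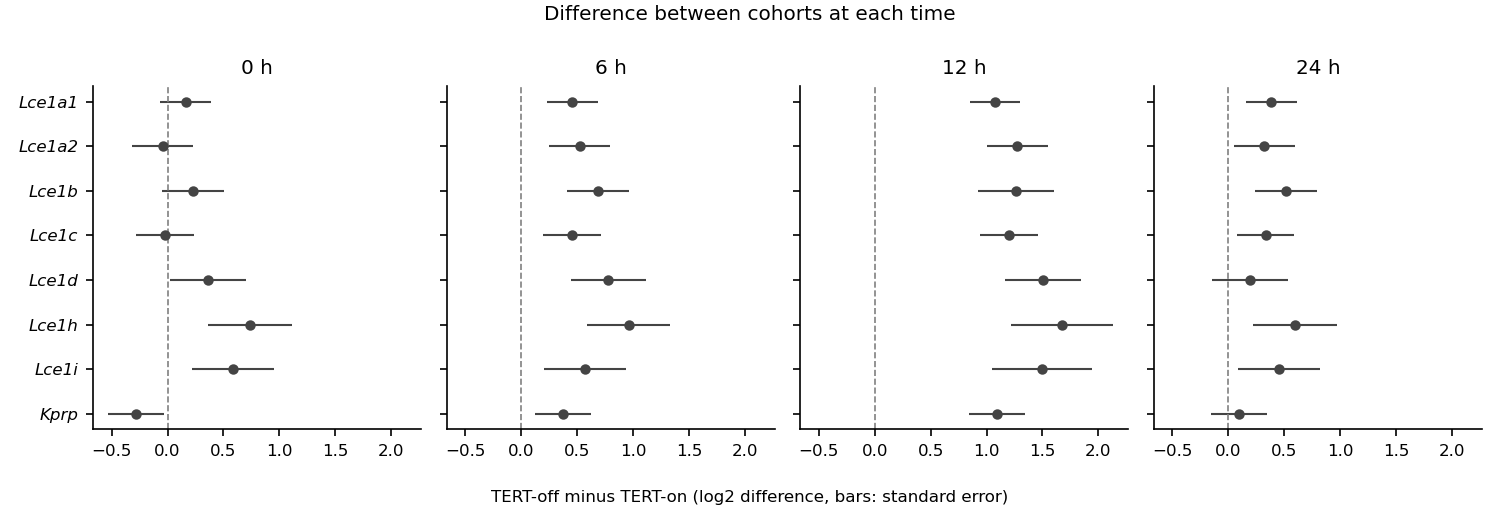
Difference between cohorts (log2, TERT-off minus TERT-on) at each time, 1 row per gene, with bars for the standard error from the fit. Points lie on both sides of 0 at 0 h (−0.28 for Kprp to 0.74 for Lce1h), between 1.08 and 1.68 at 12 h, and between 0.09 and 0.60 at 24 h.

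Whether the cohorts already differed before TERT withdrawal was tested on the 0 h arrays, which the choice of the genes had not used. At 0 h 5 of the 8 log2 differences were above 0 and 3 below (Lce1a2 and Lce1c, at −0.04 and −0.02, turned to 0.03 and 0.05 after quantile normalization), and 0 of 8 passed limma's test (adjusted p = 0.639 to 0.987), where 0.0352% of all probe sets passed. None of the 8 had an unadjusted p under 0.05 (0 of 8). Lce1h had the largest difference, 0.74, with a 95% interval of −0.09 to 1.56. Lce1i had 0.58 (−0.22 to 1.39), Lce1a1 0.16 (−0.34 to 0.66) and Kprp −0.28 (−0.83 to 0.27), and in 5 of the 8 genes this interval held the size of their difference over 6 to 24 h. The 2 TERT-off mice lay further apart than the cohorts, with TERT-off mouse 1 above TERT-off mouse 2 in 8 of 8 genes. In 3 of the 8 genes, Lce1a1, Lce1a2 and Lce1c, both TERT-on mice lay between the TERT-off mice. Without the 0 h array of TERT-on mouse 1, which had the low Gapdh ratio, the median difference at 0 h was 0.05.

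The level of each gene after 0 h was set against its own 0 h level within each cohort. In TERT-on skin the mean of 6, 12 and 24 h was below 0 h in 8 of 8 genes, with log2 changes from −0.69 (Lce1a2) to −0.12 (Lce1h) and a median of −0.47. In TERT-off skin it was above 0 h in 8 of 8, but by less, from 0.03 (Lce1a1, SE 0.18) to 0.23 (Lce1h, SE 0.31). Each of these TERT-off changes was smaller than its SE, and their median was 0.08. That median was −0.03 after quantile normalization of the arrays and 0.09 after centring the arrays on their medians. The changes have no test here, since they share the arrays of 6 to 24 h with the contrast in view when the genes were named. Over all tested probe sets the median changes were −0.0075 in TERT-off and −0.02 in TERT-on skin. In every gene except Lce1h the fall in TERT-on skin was thus larger than the rise in TERT-off skin. For the genes with the largest differences, Lce1h and Lce1i, the difference at 0 h (0.74 and 0.58) was larger than either change. That order rests on the 0 h array of TERT-on mouse 1, which had the low Gapdh ratio. Without it the 0 h differences were 0.40 and 0.38, and those over 6 to 24 h stayed at 1.08 and 0.84. Lce1h changed by 0.23 in TERT-off and −0.12 in TERT-on skin, and Lce1i by 0.04 in TERT-off and −0.22 in TERT-on skin. Tert itself was lower after 0 h in both cohorts.

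Single mice differed in this. In TERT-off mouse 1 the 8 genes had a median change of −0.15, and 2 of them, Lce1c and Kprp, were above 0 h. In TERT-off mouse 2 the median was 0.29 and 8 of 8 were above 0 h. In TERT-on mouse 1 the median was −0.41, with Lce1h alone above 0 h (0.13), and in TERT-on mouse 2 it was −0.46, with 0 of 8 above. The TERT-on mice thus moved the same way in 7 genes and the TERT-off mice in 2. For Lce1b, Lce1h and Lce1i the mean of TERT-off mouse 1 is over 6 and 24 h only. All changes of TERT-on mouse 1 start from its 0 h array, which had the low Gapdh ratio (0.0599). Without that array the fitted median change in TERT-on skin was −0.545, beside −0.471 with it.

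**Figure D3:**
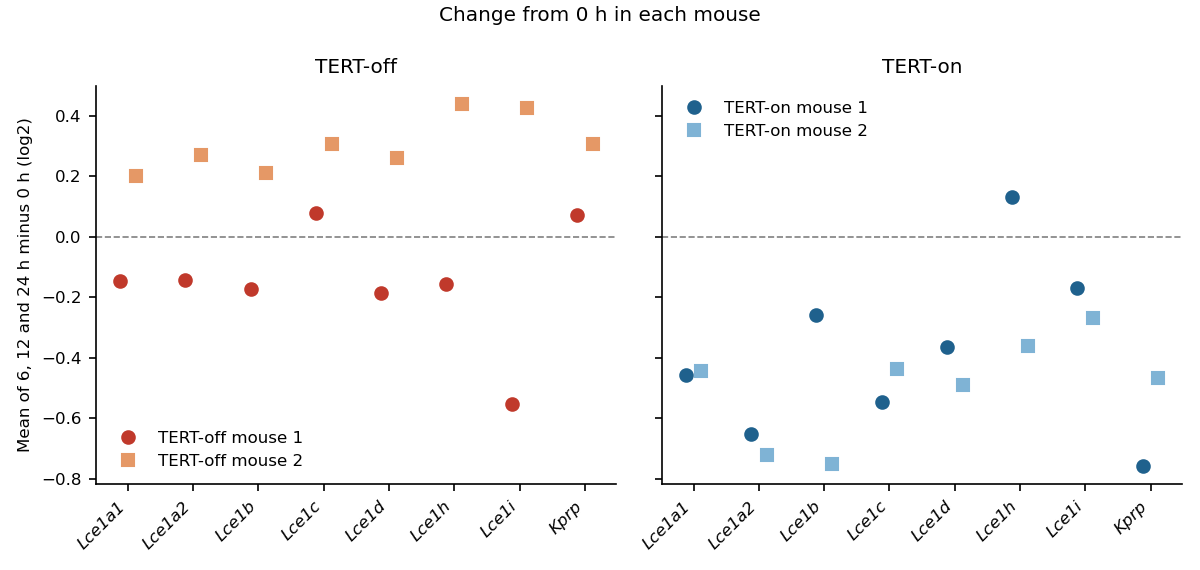
Mean of 6, 12 and 24 h minus 0 h (log2) for each gene in each mouse, TERT-off mice on the left and TERT-on mice on the right. TERT-off mouse 2 lies between 0.20 and 0.44 and TERT-off mouse 1 between −0.55 and 0.08, while TERT-on mouse 2 lies between −0.75 and −0.27 and TERT-on mouse 1 between −0.76 and 0.13.

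The time course within a mouse had a common shape in the TERT-off cohort. At 12 h all 5 genes with a value in TERT-off mouse 1 were above their 0 h level (median 0.41), and 8 of 8 were in TERT-off mouse 2 (median 0.72). At 24 h 0 of 8 were above 0 h in TERT-off mouse 1 (median −0.49), against 8 of 8 in TERT-off mouse 2 (median 0.23). TERT-off mouse 1 was the higher TERT-off mouse in 8 of 8 genes at 0 h and at 6 h, in 5 of 5 at 12 h and in 0 of 8 at 24 h, so the order of the mice turned. In the TERT-on mice the lowest point came at different times: TERT-on mouse 1 had a median change of −0.75 at 6 h, −0.46 at 12 h and −0.07 at 24 h, and TERT-on mouse 2 had −0.31, −0.59 and −0.49.

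Whether the difference grew or shrank between 6 and 24 h was tested as the cohort difference of 24 h minus the one of 6 h. This was below 0 in 8 of 8 genes, with a median of −0.19 and a range from −0.59 (Lce1d) to −0.07 (Lce1a1), and 0 of 8 passed (adjusted p = 0.729 to 0.965 from limma, 0 at an unadjusted p under 0.05), where 0.129% of all probe sets passed. The intervals were wide, at −0.75 to 0.60 for Lce1a1 and −1.59 to 0.42 for Lce1d, and the median turned to 0.20 without TERT-off mouse 1 and to 0.27 without TERT-on mouse 1. A change common to both cohorts, the mean of 6 to 24 h minus 0 h, was below 0 in 7 of 8 genes, with a median of −0.20. Here too 0 of 8 passed (adjusted p = 0.237 to 0.899, 0 at an unadjusted p under 0.05), where 2.49% of all probe sets passed. Lce1a2 was nearest to a change, at −0.31 with a 95% interval of −0.64 to 0.02.

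The 8 genes were high and low on the same arrays. Over the 15 arrays with a value for all of them, Pearson's r between 2 genes ran from 0.68 (Lce1h with Kprp) to 0.97 (Lce1a2 with Lce1c), with a median of 0.93 over 28 pairs, and among the Lce1 genes it was at least 0.83. These correlations describe 15 arrays of 4 mice, share the cohort difference, and may partly come from shared probe sequence. Kprp, which is no Lce gene, followed the others least closely. The mean of the 5 genes with a value on every array, each centred on its own mean log2 intensity, was highest on the 12 h arrays of TERT-off mouse 1 (0.93) and TERT-off mouse 2 (0.54), followed by the 0 h (0.51) and 6 h (0.41) arrays of TERT-off mouse 1. It was lowest on the 6 h (−0.77) and 12 h (−0.57) arrays of TERT-on mouse 1.

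Outside the cluster, the genes whose profile was most like the mean of the 8 lay on other chromosomes. Of 12306 genes compared over the same 15 arrays, the 10 with the highest Pearson's r were Stk10, a serine/threonine kinase (0.96), Stxbp6, a SNARE-binding protein (0.96), Orai3, a subunit of calcium channels (0.94), Cbfa2t3, a transcriptional corepressor (0.94), Dpysl2, a regulator of axon growth (0.94), Septin6 (0.94), the lysosomal Aga (0.94), Mlip (0.93), Cdon, a co-receptor of Shh (0.93), and the transcription factor Nfia (0.93). Over 6 to 24 h each was also higher in the TERT-off cohort, by log2 differences from 0.53 (Orai3) to 1.21 (Cdon). Like the Lce1 genes, all 10 were below their 0 h level in TERT-on skin after 0 h, by −0.94 (Mlip) to −0.35 (Aga) on the log2 scale. In TERT-off skin they changed by −0.08 (Aga) to 0.30 (Cdon). They were picked for this likeness, so these values are a description.

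The rest of the locus was read next. Of 21 Lce genes in the reference, 15 had a probe set and 14 were tested, 7 of them members. The 8 genes spanned 180.7 kb, with Lce1e, Lce1f, Lce1g, Lce1j and Lce1k between them. Of these 5, Lce1f alone was tested, and its log2 difference over 6 to 24 h was 0.35 (SE 0.18, adjusted p = 0.182 from limma), which did not pass. Its 6 TERT-off arrays ran from 851 to 2474 and its 6 TERT-on arrays from 948 to 1378. Lce1g had no array above 16.2 and was not tested.

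Lce1m, at the other end of the cluster beyond the Lce3 genes, was the only Lce gene outside the 8 to pass, and is named after its value was seen. It was 689 to 2121 on TERT-off arrays and 555 to 1093 on TERT-on arrays, a log2 difference of 0.74 (SE 0.21, adjusted p = 0.0262). Its r with the mean of the 8 was 0.80, which placed it at rank 544. Lce1l had 0.67 (SE 0.36, adjusted p = 0.182) at intensities of 11.1 to 57.7. Lce3f, of the Lce3 group known from barrier repair, had 0.65 (SE 0.33, adjusted p = 0.162), Lce3b 0.46 (adjusted p = 0.089), Lce3a 0.42 (adjusted p = 0.634) and Lce3c 0.08 (adjusted p = 0.91). At 0 h Lce3f, Lce3a and Lce3c had log2 differences of 2.53, 1.56 and 1.45, and the highest among the members was 0.74 (Lce1h). None of these passed, and whether the Lce3 genes differ from the members was not tested.

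**Figure D4:**
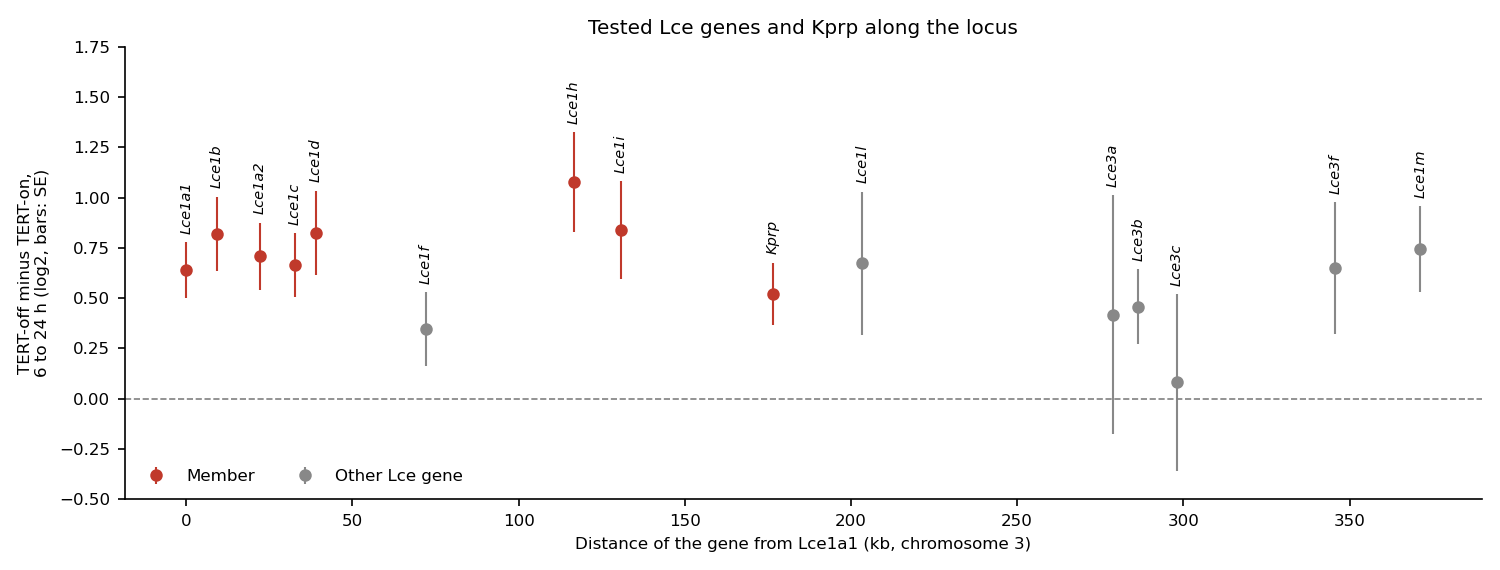
Difference between cohorts over 6 to 24 h (log2, TERT-off minus TERT-on) of each tested gene, against its distance from Lce1a1 on chromosome 3 in kb, with bars for the standard error. The 8 members (red) lie between 0.52 and 1.08, and the other tested Lce genes (grey) between 0.08 and 0.74 with wider bars for Lce1l and the Lce3 genes.

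Of 21 other tested genes of the epidermal differentiation complex (44 listed, 26 with a probe set), 5 were higher and 5 lower in TERT-off skin and 11 did not pass. Across all probe sets 15.1% were higher and 10.8% lower. The largest differences past the test were in trichohyalin and its relative, which are made in the inner root sheath and were lower in TERT-off skin. Tchhl1, which had TERT-off values under the floor of 7.71 used in the fit, had −5.26 (SE 1.37, adjusted p = 0.0195), and −2.33 already at 0 h. Tchh had −4.62 (SE 1.25, adjusted p = 0.0207), and −2.41 at 0 h, and ran from 15.3 to 3407 among the TERT-off arrays and from 3143 to 4398 among the TERT-on arrays of 6 to 24 h. Sprr2d and Sprr2i, small proline-rich precursors of the envelope, were higher in TERT-off skin by 2.16 (SE 0.48, adjusted p = 0.00969) and 2.04 (SE 0.49, adjusted p = 0.0127), but by 2.75 and 2.12 at 0 h as well. From 0 h Sprr2d changed by 1.38 in TERT-off and 1.97 in TERT-on skin, and Sprr2i by 1.25 in TERT-off and 1.34 in TERT-on skin, values given with no test. Neighbours on the chromosome thus differed both ways, and 0 of the 21 passed at 0 h. The envelope precursor Sprr1a was lower in TERT-off skin (−0.96, adjusted p = 0.0136; −0.46 at 0 h), while involucrin (Ivl) had −0.18 (adjusted p = 0.728) and loricrin (Lor) 0.22 (adjusted p = 0.279). These 3 are named after their values were seen.

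Genes of terminal differentiation as a whole did not share one direction. Of 37 tested, 8 were higher in TERT-off skin, 6 were lower and 23 did not pass, where 15.1% of all probe sets were higher and 10.8% lower. Their median log2 difference was 0.04, the same as that of all tested genes. Centring the arrays on their medians gave counts of 6 higher and 9 lower, and after quantile normalization 8 and 7. Both counts fell without either TERT-on mouse, where each TERT-on group held 1 array and calls over all probe sets fell too. Hornerin (Hrnr), a filaggrin-like envelope protein of the same complex, was 1361 to 1900 on TERT-off arrays and 601 to 953 on TERT-on arrays, with no overlap, and was higher in TERT-off skin by 1.20 (SE 0.13, adjusted p = 0.000748), with 0.39 at 0 h. Abca12, the lipid transporter of lamellar granules, was higher by 0.76 (SE 0.16, adjusted p = 0.00872), less than the 1.2 at 0 h.

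Lower in TERT-off skin were the transglutaminase Tgm3, which crosslinks envelope proteins and is also made in the hair follicle (−2.30, SE 0.56, adjusted p = 0.0142; −0.49 at 0 h), and Krt2, a keratin of the upper epidermis (−1.19, SE 0.24, adjusted p = 0.00724; −0.14 at 0 h). Alox12b, a lipoxygenase of the barrier, had 0.73 (adjusted p = 0.0634) and Casp14, a protease of the granular layer, had −0.70 (adjusted p = 0.0574), and neither passed. Filaggrin (Flg), named after its value was seen, was lower (−0.48, adjusted p = 0.0252; −0.14 at 0 h). At 0 h 0 of the 37 genes passed.

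**Figure D5:**
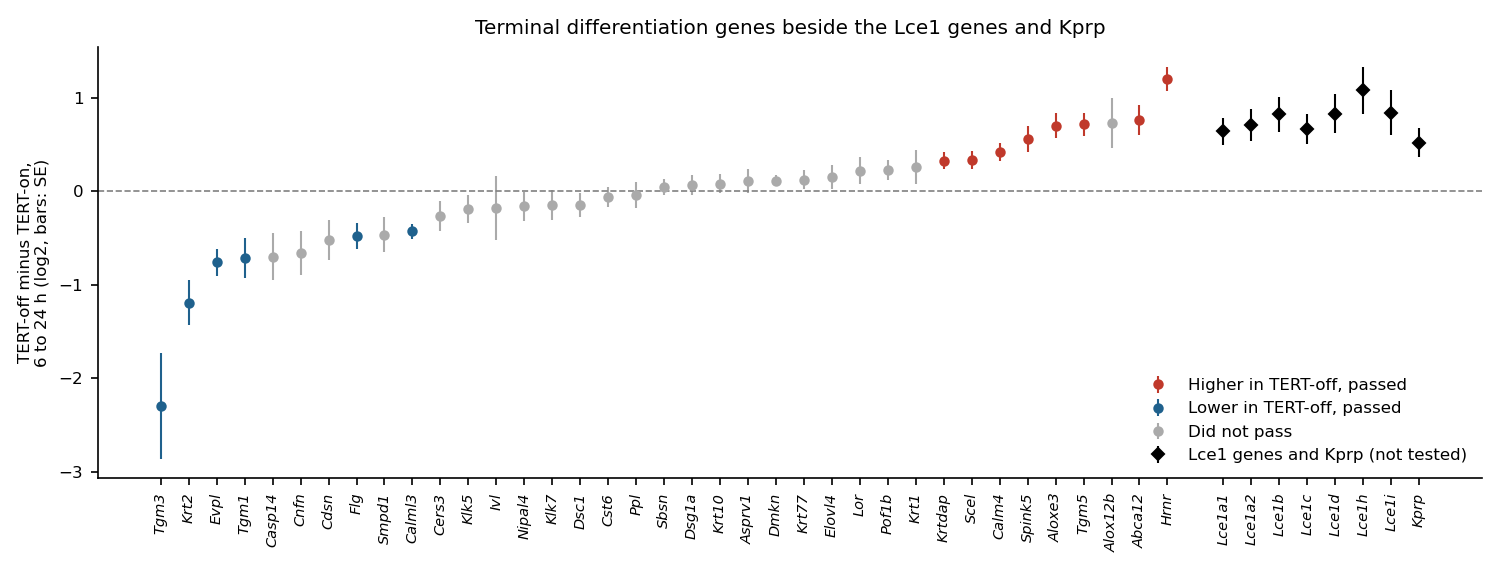
Difference between cohorts over 6 to 24 h (log2, TERT-off minus TERT-on) of 37 terminal differentiation genes in order of size, with the 8 genes described here on the right (black diamonds), and bars for the standard error. Red and blue points passed limma's test as higher (8) and lower (6); the list runs from −2.30 (Tgm3) to 1.20 (Hrnr), and the 8 genes lie between 0.52 and 1.08.

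Of 23 tested transcription factors known to act in epidermal differentiation, 3 were higher and 8 lower in TERT-off skin and 12 did not pass, where 15.1% of all probe sets were higher and 10.8% lower. Their median log2 difference was −0.19 over 6 to 24 h and −0.28 at 0 h, and the list as such was not tested, and 0 of the 23 passed at 0 h. Satb1, a chromatin organiser of the epidermal differentiation complex in mouse, was higher in TERT-off skin by 1.19 (SE 0.28, adjusted p = 0.0122), with −0.25 at 0 h, at 119 to 234 on TERT-off arrays and 43.8 to 124 on TERT-on arrays. Pparg, a nuclear receptor of lipid synthesis, was higher by 0.66 (SE 0.22, adjusted p = 0.0470), and by 0.56 already at 0 h. Ovol1, a repressor in differentiating keratinocytes and hair, was lower (−1.01, SE 0.23, adjusted p = 0.0116; −0.34 at 0 h), and so was Vdr, the vitamin D receptor (−0.99, SE 0.22, adjusted p = 0.00941), which stood at −1.02 already at 0 h. Prdm1 had −0.49 (adjusted p = 0.0605) and Ppara 0.46 (adjusted p = 0.0819). Satb1 was below its 0 h level in TERT-on skin (−0.996) and above it in TERT-off skin (0.45), values that have no test here.

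Markers of other cells differed between the cohorts too, in part already at 0 h. Over 6 to 24 h 15.1% of all probe sets were higher and 10.8% lower in TERT-off skin. Of the granular layer list 0 of 4 genes were higher and 1 lower in TERT-off skin, and of 4 suprabasal keratinocyte genes (Krt1, Krt10, Dsg1a and Dsc1) 0 passed, with sums of 7765 to 11695 in TERT-off and 8022 to 11199 in TERT-on skin. All 5 hair shaft genes and all 4 inner root sheath genes were lower. The summed intensity of the hair shaft genes was 37.6 to 13481 on TERT-off arrays and 4363 to 17935 on TERT-on arrays of 6 to 24 h. The 0 h sum was 138 on 1 TERT-off array, 16370 on the other TERT-off array and 5053 on the 1 TERT-on array with all values, and for the inner root sheath genes it was 446 and 18059 on TERT-off arrays and 13819 and 18412 on TERT-on arrays. In each list 1 TERT-off array was thus low already at 0 h. Fibroblast genes were higher in 3 of 4 cases (sums of 16855 to 25750 in TERT-off and 11670 to 18583 in TERT-on skin), neutrophil genes in 3 of 3 (2345 to 9867 on 5 TERT-off arrays and 768 to 1421 on 6 TERT-on arrays) and macrophage genes in 4 of 4 (3407 to 7998 on 5 TERT-off arrays and 1895 to 3872 on 6 TERT-on arrays). At 0 h the neutrophil sums were 1112 to 1545 in the TERT-off mice and 652 to 685 in the TERT-on mice, and the macrophage sums 2609 to 4337 in the TERT-off mice and 1603 to 2698 in the TERT-on mice. Sebaceous gland genes were higher in 2 of 3 cases, with sums of 5826 to 8827 in TERT-off and 4561 to 5629 in TERT-on skin. Their 0 h sums were 5940 to 7861 in the TERT-off mice and 5947 to 7349 in the TERT-on mice. Of the basal keratinocyte genes 1 of 4 was higher, of the skeletal muscle genes 1 of 4 and of the adipocyte genes 1 of 2, and 0 were lower. The lowest value of any marker was 1.67, of a hair shaft gene, where the table's lowest value is 1. The part of these shifts in the levels of the Lce1 genes and Kprp was not tested.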

How the data were processed

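The authors deposited 1 intensity value per probe set and array on a linear scale. Per the study's methods the arrays had been normalized with dChip, by an invariant set, and probe sets summarised by its model-based PM minus MM index. The table held 45101 probe sets and 1425 empty cells, with array medians of 32.9 to 36.3. Gene symbols came from the platform annotation, updated through the gene ID to the RefSeq table.

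Values were floored at the 20th percentile of the table (7.71) before log2. A probe set had to exceed the table's median (34.4) on 2 or more arrays, and 64 control probe sets were left out. A limma fit (version 3.58.1, R 4.3.3, statmod 1.5.0) estimated 8 group means with mice as a random block (consensus correlation within a mouse 0.0728) and an intensity trend, with two-sided p-values adjusted by Benjamini-Hochberg over 25563 probe sets and a threshold of 0.05. The probe set with the highest mean stood for a gene. The fit was tested on simulated data. The number of mice, 2 per cohort, limits the precision, and p-values assume that mice of a cohort vary alike. The same low correlation served every probe set, so serial biopsies of a mouse counted as nearly independent arrays. The p-values therefore do not measure the spread between mice of a single gene, which can be large. Tchh, for one, ran from 15.3 to 3407 on the TERT-off arrays of 6 to 24 h. Figures were drawn with matplotlib 3.10.9.

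The 8 genes, the gene lists and the tests were chosen with earlier results of these data known. The genes named are all members, up to 4 genes of each list with the largest differences past the threshold and the 2 largest that did not pass, and the 10 most similar genes, with others said to be named after their values were seen. The alternatives covered the floor, the filter, the normalization, the block, the trend, the probe sets of a gene and each mouse left out.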

Additional observations from a re-analysis of the deposited data

Results flagged for a closer look

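Lce1c and Kprp were the genes among the 8 whose mean after 0 h lay above 0 h in both TERT-off mice and below it in both TERT-on mice. Lce1c changed by 0.08 and 0.31 on the log2 scale in the TERT-off mice and by −0.55 and −0.44 in the TERT-on mice, a fitted difference of 0.68. Kprp changed by 0.07 and 0.31 in the TERT-off mice and by −0.76 and −0.47 in the TERT-on mice, a fitted difference of 0.80. The difference between the changes was not tested, since it shares arrays with the contrast known when the genes were named. Each group held 2 arrays, too few to look for single arrays that stand apart. The changes of TERT-on mouse 1 start from its 0 h array, which had the low Gapdh ratio.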

How the results depend on the processing

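The median log2 difference of the 8 genes over 6 to 24 h stayed between 0.604 and 0.84 under all settings tried, and each of the 8 stayed above 0. At 0 h 0 of 8 passed under any setting tried, with medians from −0.102 to 0.341, and 6 of the genes, all except Lce1h and Lce1i, changed sign under at least 1 setting. Leaving out 1 mouse moved the counts: between 0 and 6 of the genes lay past the threshold over 6 to 24 h (0 without either TERT-on mouse, 5 of 5 measured without TERT-off mouse 2), and the terminal differentiation list had between 1 and 11 genes higher and between 0 and 8 lower. Without 1 mouse each group of its cohort holds 1 array, which is assumed to vary like the other groups. The median of the 24 h difference minus the 6 h one ranged from −0.621 (without TERT-on mouse 2) to 0.269 (without TERT-on mouse 1), with 0.195 without TERT-off mouse 1 and −0.558 over 5 genes without TERT-off mouse 2; the cause was not tested. Without the replicate block the median over 6 to 24 h was 0.758, and with the replicate number as a fixed replicate block it was 0.763. All 8 genes lay past the threshold in both, where 7770 and 8370 of all 25563 probe sets did. Equal numbers in both cohorts name different mice and pair nothing. The mouse as a fixed replicate block cannot give the difference between cohorts. With it the 24 h difference minus the 6 h one had a median of −0.187, and the change common to both cohorts −0.189. No call of the 8 genes changed in either. Leaving out the 12 h array of TERT-off mouse 1, chosen after its values were seen, gave a median of 0.707 over 6 to 24 h. Another floor or none left the medians as they were. Without the filter 44991 probe sets share the adjustment, and 5550 of them lay past the threshold. Of the 8 genes 6 did, and the median of the 8 was 0.761.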
